A study of Mus musculus with 6 samples.

Results

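The genes of the T cell receptor constant regions and of CD3 were followed across single cells of murine colon tumours. The 10 genes were taken by symbol from the 31053 features of the count tables: Trac, Trbc1, Trbc2, Trdc, Tcrg-C1, Tcrg-C2, Tcrg-C4, Cd3e, Cd3d and Cd3g. The set was chosen by Trac levels in these data, which were higher in epithelial barcodes of AOM PN tumours, so every value of that epithelial contrast is given as a description with no test. Whole tumours of male mice were dissociated, dead cells were sorted out with DAPI, and 6 libraries (droplet-based, 3′ ends) were made, 3 per model. Both models carry VilCreER, a tamoxifen-inducible Cre driven by the villin promoter, which acts in intestinal epithelium. Apc ICI mice were VilCreER Apcfl/fl and received 70 µl of 100 µM 4-OH tamoxifen in the submucosa of the colon. AOM PN mice were VilcreER P53fl/fl Notch1Tg, which lose p53 and carry a Notch1 transgene. They received 2 mg tamoxifen intraperitoneally and, from day 4, the carcinogen azoxymethane (AOM) at 10 mg/kg weekly for 6 weeks. The group labels also read Intracolonic Induction for Apc ICI and Ageing Tumor for AOM PN, and ages were not used here. Targeted genes, carcinogen and mode of induction differ together between the models and cannot be told apart. The labels do not say that the 3 samples of a model came from separate animals, so p-values reflect the spread among samples, which may be technical.

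A T cell recognises its target through a pair of variable chains, alpha with beta or delta with gamma, and each chain ends in a constant region that anchors it in the membrane. Trac encodes the alpha constant region, Trbc1 and Trbc2 the alternative beta constant regions, Trdc the delta constant region, and Tcrg-C1, Tcrg-C2 and Tcrg-C4 the alternative gamma constant regions. The chains do not signal themselves: Cd3e, Cd3d and Cd3g encode the epsilon, delta and gamma chains of CD3, which carry the signal together with the zeta chain Cd247. In the gut, alpha-beta T cells include regulatory and helper cells of the lamina propria and cytotoxic cells of the epithelium, while gamma-delta T cells include producers of interleukin 17 and residents of the epithelium.

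The beta constant genes lie side by side on chromosome 6 in GRCm38 (the same assembly as mm10), Trbc1 at 41538218 to 41539881 and Trbc2 at 41546730 to 41548352, both on the plus strand. Tcrg-C1 (plus strand) and Tcrg-C2 (minus strand) lie on chromosome 13 at 19214103 to 19217024 and at 19304649 to 19307551. The coding parts within each pair are close to identical, which bears on how far reads of one gene can be told from those of the other. The 518 coding bases of Trbc1 and Trbc2 differed at 23 positions (95.6% identity), of which 22 lie in bases 319 to 518, printed here to show where they can be told apart, 5′ to 3′ from the GENCODE M21 transcripts with differing bases in capitals.
Trbc1: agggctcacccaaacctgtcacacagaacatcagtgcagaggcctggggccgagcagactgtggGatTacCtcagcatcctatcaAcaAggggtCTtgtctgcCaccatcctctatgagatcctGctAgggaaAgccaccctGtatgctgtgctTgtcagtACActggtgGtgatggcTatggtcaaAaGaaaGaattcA
Trbc2: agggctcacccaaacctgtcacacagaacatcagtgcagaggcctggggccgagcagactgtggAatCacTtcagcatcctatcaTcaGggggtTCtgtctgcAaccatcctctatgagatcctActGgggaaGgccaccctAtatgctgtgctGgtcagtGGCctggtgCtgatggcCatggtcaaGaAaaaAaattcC
Over the aligned coding bases Tcrg-C1 and Tcrg-C2 were 97.4% identical. After the coding part, the aligned bases were 65.7% identical between Trbc1 and Trbc2 and 94.4% between Tcrg-C1 and Tcrg-C2.
In the last 500 bases of the transcripts, where 3′ reads mostly fall, 8.03% of 90-base windows of Trbc1 occurred in Trbc2 and 3.65% of those of Tcrg-C1 in Tcrg-C2. Tcrg-C4, at 78.7% coding identity with Tcrg-C1, shared no such window with either. The split of UMIs (unique molecular identifiers, 1 per captured molecule) within the Trbc and the Tcrg-C1 and Tcrg-C2 pairs is therefore uncertain, since the rule for reads that match both copies is not given in the sources used here. Trac lies on chromosome 14 at 54220521 to 54224206 (plus strand), downstream of Trdc at 54142851 to 54148868. The coding part of the third exon of Trac, at chr14:54222991-54223094 in GRCm38, plus strand, is shown because the epithelial signal described further on was counted for Trac alone.
Trac coding part of the third exon: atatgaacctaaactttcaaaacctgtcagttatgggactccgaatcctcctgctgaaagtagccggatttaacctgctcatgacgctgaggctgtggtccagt
The CD3 genes form a cluster on chromosome 9, with Cd3g at 44969572 to 44980431, Cd3d at 44981786 to 44987339 and Cd3e at 44998740 to 45009627.

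Libraries held 59309093 to 98583066 UMIs, and 4726 to 11399 cells per library were kept. Haemoglobin took 21.4% to 61.4% of the UMIs of the Apc ICI libraries and 1.87% to 29.0% of those of AOM PN, so AOM PN 3 stood apart with the lowest share. No pair of libraries shared more than 0.36% of its barcodes. Cells were clustered without the receptor and CD3 genes, but Cd3e, Cd3d, Cd3g, Trac and Trbc2 were among the 12 markers used to call a cluster T/NK-like, so the contrast of T/NK-like cells with other classes is partly set by the naming. T/NK-like cells numbered 439, 419 and 213 among Apc ICI libraries 1, 2 and 3, the order used throughout, and 1578, 683 and 1620 among those of AOM PN. A UMI of at least 1 of the 10 genes was found in 96.1% of them and a CD3 UMI in 89.7%. Median depth was 6515, 1967 and 4370 UMIs per cell in Apc ICI and 4155.5, 6870 and 4666.5 across AOM PN, so Apc ICI 2 was the shallowest. Levels are given as CPM, UMIs of the gene per 1000000 UMIs summed over the cells of a class in a library. Fold changes come from edgeR, whose scaling between libraries places them about 0.1 log2 units above the plain ratio of these CPM in T/NK-like cells.

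In T/NK-like cells the gamma constant genes Tcrg-C1 and Tcrg-C2 were lower in AOM PN, and no other of the 10 genes passed the test. The levels of Trac, Trdc, Tcrg-C4 and Cd3g did not overlap between the models and did not pass, while those of Trbc1, Trbc2, Cd3e and Cd3d overlapped. The share of all genes tested whose levels did not overlap is not given. Absence of overlap is therefore only a description here and below. The 2 genes called stood beside 6.14% of the 10360 genes tested in either direction (2.92% lower). Trac stood at 297, 325 and 287 CPM across Apc ICI and at 392, 326 and 366 across AOM PN. Every AOM PN library was above every Apc ICI library, the closest being AOM PN 2 and Apc ICI 2. The change in Trac was 0.36 ± 0.11 on the log2 scale (SE, n = 3 per group), with an edgeR quasi-likelihood adjusted p of 0.0919.

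Trdc stood at 1297, 1162 and 1466 CPM across Apc ICI and at 264, 395 and 837 across AOM PN. The groups did not overlap, and within AOM PN the highest library was about 3 times the lowest. With that spread the difference of -1.28 ± 0.35 did not pass the test (edgeR adjusted p = 0.0626), although without AOM PN 3 it was -1.90 with an adjusted p of 0.00113. Set against each other within a library, Trdc made up 81.4%, 78.1% and 83.6% of the UMIs of Trac and Trdc in Apc ICI and 40.2%, 54.8% and 69.6% across AOM PN. The means were 81.0% ± 2.80 and 54.8% ± 14.7 (SD, n = 3), and a two-sided exact permutation test over libraries had p = 0.1, the smallest that 3 against 3 allows (0.18 after adjustment over 9 such values).

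Tcrg-C1, the most abundant of the gamma constant transcripts, stood at 451, 400 and 412 CPM across Apc ICI and at 139, 174 and 254 across AOM PN. It was lower in all AOM PN libraries, by -1.05 ± 0.21 on the log2 scale (edgeR adjusted p = 0.0247). The call for Tcrg-C1 was lost when any 1 Apc ICI library was left out (adjusted p 0.0644 to 0.0873) and without AOM PN 2 (0.0730). Tcrg-C2 stood at 201, 169 and 265 CPM across Apc ICI and at 112, 106 and 112 across AOM PN, where the libraries lay close together. It was lower by -0.83 ± 0.16 (edgeR adjusted p = 0.0207), a call that ended when Apc ICI 1 (0.0726) or 3 (0.0716) or AOM PN 1 (0.0512) or 2 (0.0648) was left out. Tcrg-C4 stood at 127, 123 and 137 CPM across Apc ICI and at 91.8, 98.1 and 99.4 across AOM PN, groups that did not overlap. Its difference of -0.31 ± 0.11 did not pass (edgeR adjusted p = 0.119), and its share of the gamma constant UMIs was 16.3%, 17.7% and 16.8% across Apc ICI against 26.8%, 25.9% and 21.3% across AOM PN (exact permutation p = 0.1, adjusted 0.18).

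Neither beta constant gene passed the test, and Trbc2 was the more abundant of the pair in every library. Trbc1 stood at 619, 718 and 534 CPM across Apc ICI and at 662, 614 and 717 across AOM PN, and Trbc2 at 1212, 1240 and 1401 and at 1331, 1300 and 1354. The ranges overlapped for both, with changes of 0.19 ± 0.13 and 0.15 ± 0.10 (edgeR adjusted p = 0.395 and 0.375). Trbc1 took 33.8%, 36.7% and 27.6% of the Trbc UMIs in Apc ICI and 33.2%, 32.1% and 34.6% across AOM PN, again overlapping.

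Cd3g was the most abundant CD3 transcript and Cd3e the least in every library. Cd3e stood at 750, 617 and 755 CPM across Apc ICI and at 571, 525 and 622 across AOM PN, ranges that just overlapped. Cd3d stood at 1013, 1020 and 1209 CPM against 1094, 945 and 1137, and Cd3g at 1961, 1693 and 1975 against 1577, 1281 and 1638. Cd3g levels did not overlap. None passed the edgeR test, with changes of -0.20 ± 0.13 for Cd3e (adjusted p = 0.357), 0.07 ± 0.12 for Cd3d (0.740) and -0.22 ± 0.13 for Cd3g (0.317). All 10 genes together took 79.3, 74.7 and 84.4 of every 10000 UMIs in Apc ICI and 62.3, 57.7 and 71.4 across AOM PN, without overlap (exact permutation p = 0.1, adjusted 0.18).

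**Figure D1:**
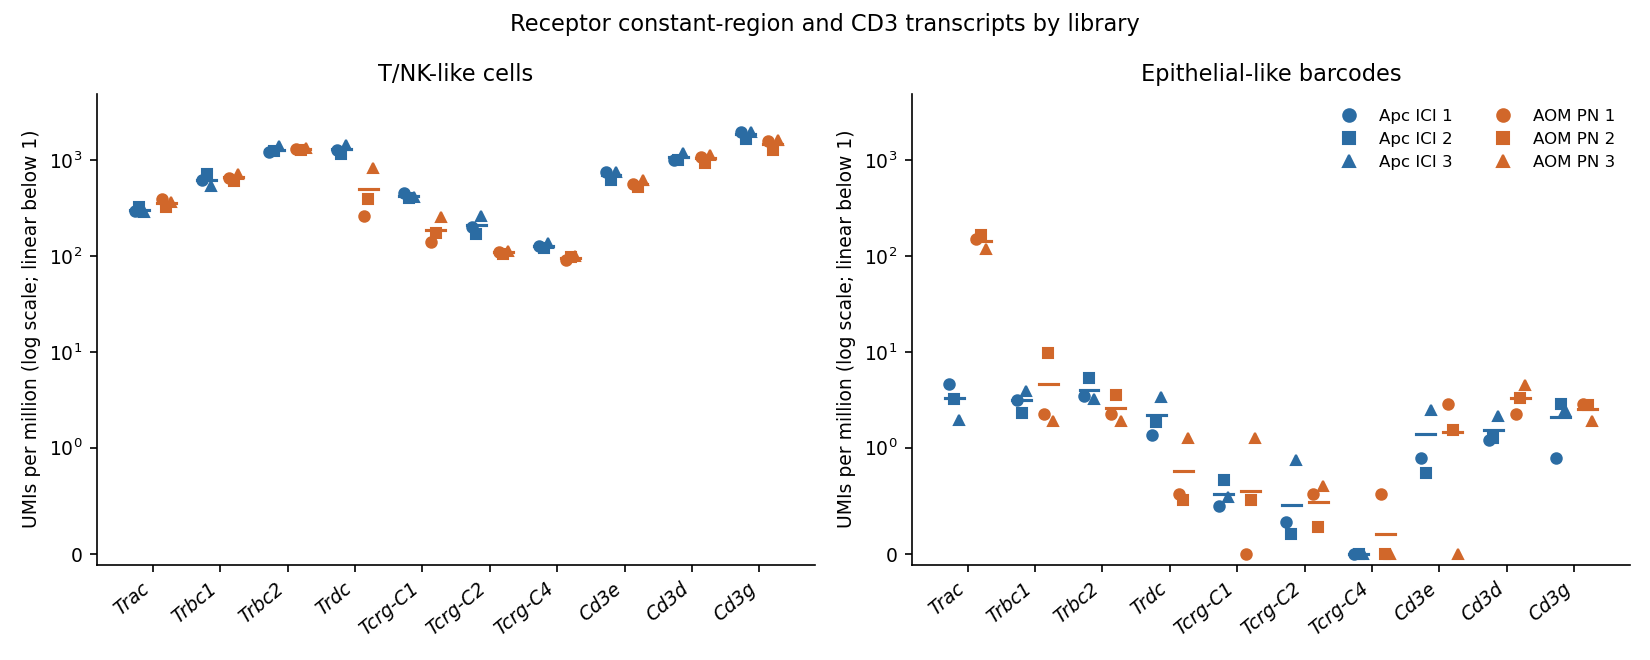
Levels of the 10 genes in each library, in T/NK-like cells (left) and epithelial-like barcodes (right), in CPM on an axis that is logarithmic above 1 and linear below; points are libraries and bars the group means. On the left Trdc, Tcrg-C1, Tcrg-C2, Tcrg-C4 and Cd3g are lower, and Trac is higher, in all 3 AOM PN libraries. On the right Trac alone reaches 119 CPM or more in AOM PN.

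Within T/NK-like cells, sub-clusters were again formed without the 10 genes and named from other markers, so the levels by subset are a description of genes that did not define them. The order of Trac, in mean CPM over library sums, ran from regulatory T-like (Treg-like) cells with 578 ± 88.6 (SD, n = 6) over conventional CD4 T-like cells with 559 ± 115 (n = 6) to CD8 T-like cells with 544 ± 14.9 (n = 3), 3 neighbours whose ranges overlapped; subsets with fewer than 6 sums had too few cells in some libraries, mostly those of Apc ICI. The CD8 T-like sums were all from AOM PN, and within AOM PN alone CD4 T-like cells were lower, at 463 ± 31.9 CPM (SD, n = 3, 443 to 499), than CD8 T-like cells (530 to 559), without overlap. Over all sums Trac was at 141 ± 42.1 in gamma-delta T-like cells, 68.7 in NK or group 1 innate lymphoid-like cells and 21.7 in group 2 innate lymphoid-like cells. Trac thus reached its lowest levels in the subsets that do not use an alpha chain, with ranges that did not overlap from 1 to the next among the last 3. Gamma-delta T-like cells, named from genes such as Cd163l1, Blk and Il17a, still held a Trac UMI in 29.4% to 45.7% of cells per library.

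Trdc was highest in gamma-delta T-like cells at 2482 ± 256 CPM (SD, n = 6), far above cycling-like cells at 439 ± 49.4 (n = 3). It was at 11.2 in Treg-like, 3.98 in CD8 T-like and 1.60 in CD4 T-like cells, whose ranges overlapped. The gamma constant genes were spread more widely over subsets than Trdc. Tcrg-C1 stood at 655 ± 88.0 CPM in gamma-delta T-like cells, and at 276 in a sub-cluster led by Il22 and Pxdc1 and 261 in group 2 innate lymphoid-like cells, which overlapped. Tcrg-C2 was at 252 ± 106 in gamma-delta T-like cells and, overlapping with it, at 248 ± 18.9 in a sub-cluster led by Cd7 and Gzmc. Tcrg-C4 overlapped among gamma-delta T-like cells (222 ± 33.6), the Cd7 and Gzmc sub-cluster (188) and group 2 innate lymphoid-like cells (183). Treg-like cells had the lowest level of each, at 5.83 for Tcrg-C1, 1.65 for Tcrg-C2 and 3.03 for Tcrg-C4.

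The beta constant genes separated T cells from innate lymphocytes less sharply than CD3 did. Trbc1 ran from 836 CPM in CD8 T-like to 422 in NK or group 1 innate lymphoid-like cells, and the ranges of all neighbours in that order overlapped. Trbc2 ran from 1839 CPM in CD8 T-like cells to 577 in group 2 innate lymphoid-like and 190 in NK or group 1 innate lymphoid-like cells, the last 2 set apart from their neighbours. The 2 libraries with enough group 2 innate lymphoid-like cells carried Trbc1 at 472 CPM and Tcrg-C4 at the 183 CPM given above, overlapping with neighbouring subsets, with Cd3e at 39.6 and Cd3g at 182. Cd3g was highest in gamma-delta T-like cells at 2578 ± 183 CPM, above the Il22 and Pxdc1 sub-cluster at 1685 without overlap, and Cd3e was likewise highest there at 841 ± 87.6. In NK or group 1 innate lymphoid-like cells Cd3e, Cd3d and Cd3g lay at 17.3, 57.6 and 27.3 CPM.

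**Figure D2:**
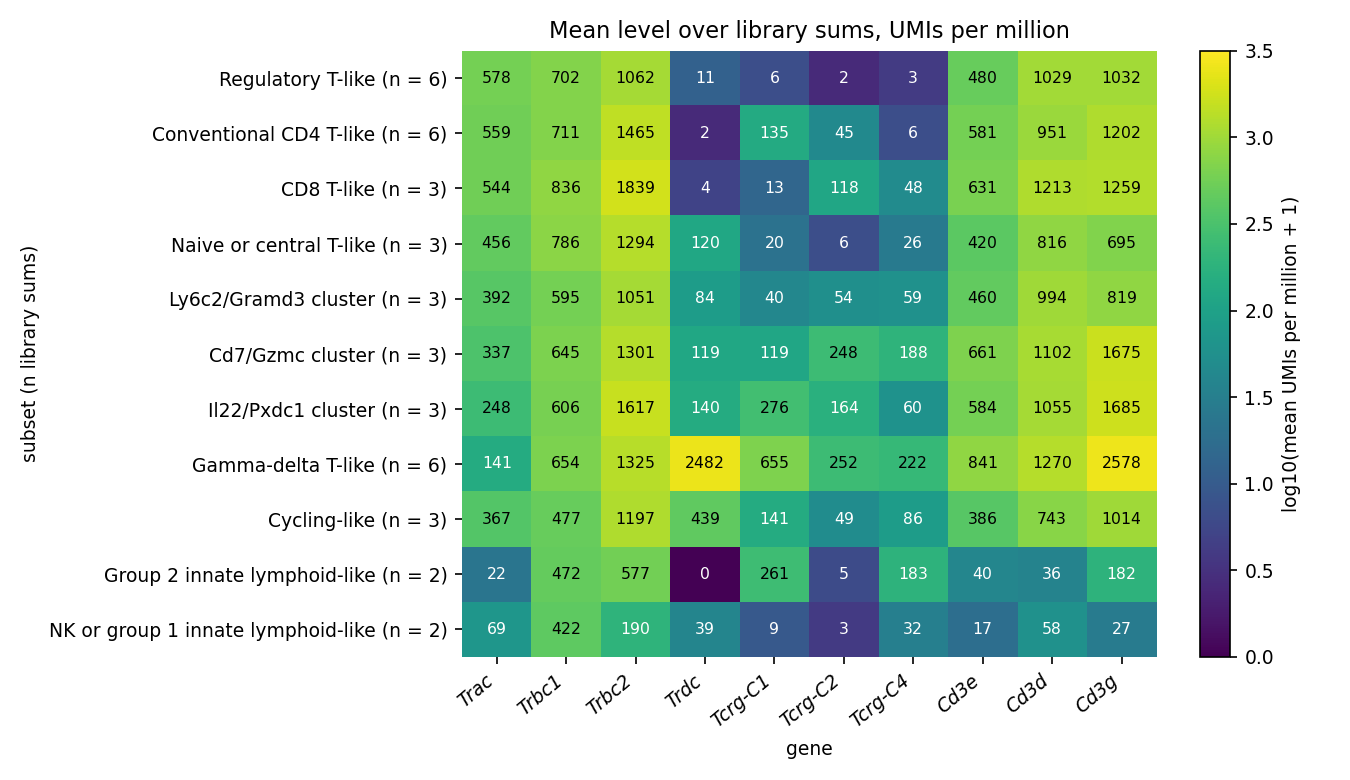
Mean level of each gene in each subset of T/NK-like cells, in CPM over n library sums of at least 20 cells; the colour is log10 of the mean plus 1. Trdc is concentrated in gamma-delta T-like cells, Trac in Treg-, CD4 and CD8 T-like cells, and Trbc1 stays between 422 and 836 CPM in all subsets.

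In single T/NK-like cells of all libraries together, 56.6% held a UMI of Trac and none of Trdc, 13.1% of Trdc and none of Trac, and 6.08% of both. The 4626 of 4952 cells with at least 1000 UMIs were also thinned to 1000 UMIs, which left out 116 of the 419 of Apc ICI 2. After this thinning the share with both was 1.32%. Of cells with a Trbc UMI, 53.2% held both Trbc1 and Trbc2 and 28.2% did so after thinning. Among group 2 innate lymphoid-like cells with a Trbc UMI the shares with both were 70% and, after thinning, 24.2%. The sources of cells with both, among them the near identity of the pair and any doublets that remain, were not tested.

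The share of gamma-delta T-like cells among T/NK-like cells moved with the delta and gamma transcripts. It was 58.8%, 44.9% and 49.3% across Apc ICI and 7.98%, 13.6% and 28.1% across AOM PN, without overlap. That gap rested on the 2 sub-clusters with the least Trdc, described further on. The sub-cluster led by Trdc alone was 17.1%, 10.5% and 16.9% of T/NK-like cells across Apc ICI and 4.69%, 4.39% and 13.2% across AOM PN. Together with the sub-cluster led by Il17f it was 17.8%, 13.6% and 18.8% against 6.53%, 10.4% and 26.1%, so the models overlapped in both counts, through AOM PN 3. AOM PN 3, the AOM PN library with the most Trdc, also had the largest share. Treg-like cells were 22.3% ± 7.65 and 28.8% ± 1.91 of T/NK-like cells (SD, n = 3) and CD4 T-like cells 7.88% ± 2.18 and 13.6% ± 1.49. Of the Treg-like cells, a shallow sub-cluster described further on held 69.5% in Apc ICI and 7.75% in AOM PN. The sub-cluster led by Igkc and Tnfrsf4 held 15, 19 and 13 cells across Apc ICI and 247, 118 and 234 across AOM PN. That led by Fabp5 and Tff1 held 13, 6 and 6 against 209, 34 and 206. The Treg-like shares thus depend on counting the shallow sub-cluster. In sums over a class, fewer cells of a type and less RNA per cell cannot be told apart.

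Within gamma-delta T-like cells Trdc was at 2062, 2475 and 2520 CPM across Apc ICI and at 2721, 2357 and 2758 across AOM PN, with overlap and a change of 0.28 ± 0.14 (edgeR adjusted p = 0.282). Tcrg-C1 was at 689, 815 and 637 CPM against 622, 589 and 576, a change of -0.14 ± 0.13 (0.577). Neither Trdc nor Tcrg-C1 passed the test there, in cells whose makeup by sub-cluster differed between the models. Tcrg-C2 was the 1 gene of the 10 called in these cells, beside 4.91% of 6328 genes tested (2.4% lower). It was at 304, 334 and 393 CPM across Apc ICI and at 126, 199 and 159 across AOM PN, all AOM PN libraries lower, by -0.95 ± 0.18 (edgeR adjusted p = 0.0128). Tcrg-C2 took 25.9%, 24.0% and 32.2% of the gamma constant UMIs in Apc ICI and 12.9%, 18.8% and 16.7% across AOM PN, while Tcrg-C4 took 15.5%, 17.3% and 15.6% against 23.8%, 25.7% and 22.6%. Both shares were without overlap (exact permutation p = 0.1, adjusted 0.225 over 9 values). Trac was at 197, 150 and 180 CPM against 88.2, 112 and 121, a difference of -0.58 ± 0.18 that did not pass (edgeR adjusted p = 0.0757).

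The gamma-delta T-like cells of the models were distributed differently over their 4 sub-clusters. A sub-cluster led by Trdc, Trdv4 and Il17a held 28.1% of those of Apc ICI and 47.1% of those of AOM PN, and one led by Il17f and Il17a held 3.63% and 41.3%. Sub-clusters led by Ramp1 and Cxcr6 and by Dgat1 and Nmrk1 held 34.3% and 33.9% across Apc ICI against 6.67% and 4.89% across AOM PN, and in them the summed Trdc level was at most 853 CPM, beside 4782 and 4347 CPM in the sub-cluster led by Trdc. Per library, 41.9%, 46.8% and 46.7% of the Apc ICI cells and 80.2%, 71.0% and 80.7% of the AOM PN cells held a Trdc UMI, so the name covers cells without detected Trdc in both models. The summed level of Tcrg-C2 was lower in AOM PN in 3 of the 4 sub-clusters, at 282 against 148 CPM in the one led by Trdc, 217 against 168 in that led by Il17f, where the libraries overlapped, and 396 against 219 in that led by Ramp1 (sums over libraries, no test). The sub-cluster led by Dgat1 held 37 Tcrg-C2 UMIs in 187 cells of Apc ICI and 1 UMI in 33 cells of AOM PN, too few to compare. In the sub-cluster led by Trdc the libraries were at 293, 307 and 225 CPM across Apc ICI and at 96.4, 211 and 148 across AOM PN. The delta variable segment Trdv4 was found in 35.7%, 30.9% and 37.1% of gamma-delta T-like cells of Apc ICI and in 57.1%, 51.6% and 52.9% of those of AOM PN.

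**Figure D3:**
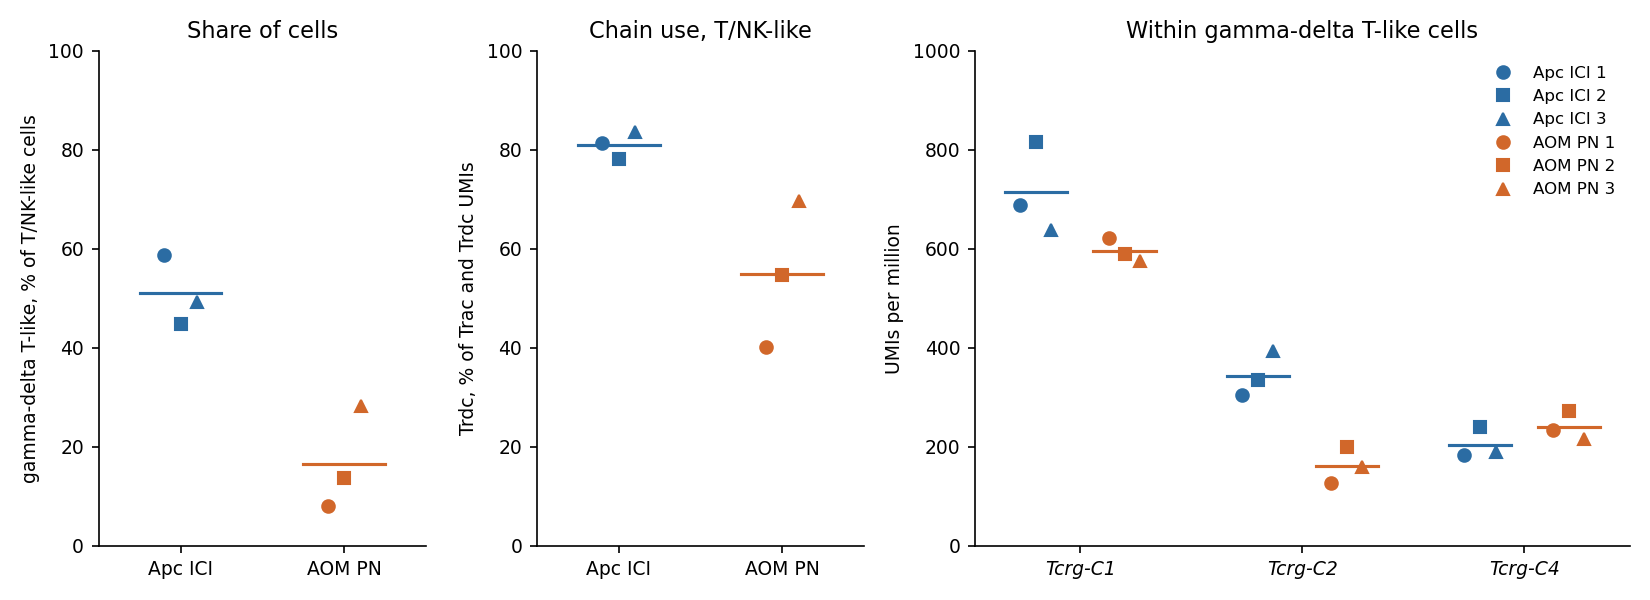
Left, share of gamma-delta T-like cells among T/NK-like cells in percent; middle, Trdc as a percent of the Trac and Trdc UMIs of T/NK-like cells; right, levels of the gamma constant genes within gamma-delta T-like cells in CPM. Points are libraries and bars are group means; neither percentage overlaps between models, and Tcrg-C2 is lower in all AOM PN libraries.

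In Treg-like cells Trbc2 was the 1 gene called of the 6 tested, beside 16.8% of 6107 genes in either direction (8.02% higher). It was at 909, 655 and 1054 CPM across Apc ICI and at 1259, 1168 and 1325 across AOM PN, without overlap, a change of 0.64 ± 0.19 (edgeR adjusted p = 0.0327). Leaving out Apc ICI 2 (adjusted p 0.0912) or any 1 AOM PN library (0.0520 to 0.0881) ended the call, while without Apc ICI 1 Cd3d and Cd3g were called as well. A shallow sub-cluster led by Ttn and Ikzf2, with a median of 867.5 UMIs per cell, held 69.5% of the Treg-like cells of Apc ICI (164 of 236) and 7.75% of those of AOM PN (88 of 1136). Trbc2 was at 414 CPM in that sub-cluster in Apc ICI and 156 across AOM PN, and at 889 against 1106 and 1294 against 1487 in the other 2 Treg-like sub-clusters. The part of that makeup in the Trbc2 call was not tested. Cd3d (0.47 ± 0.17) and Cd3g (0.47 ± 0.21) did not pass (edgeR adjusted p = 0.0796 and 0.130).

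In conventional CD4 T-like cells no gene of the 8 tested was called by edgeR, beside 0.175% of 4570 genes. An unadjusted p under 0.05 was reached by 2, a count without its share over all genes. Trbc1 was at 664, 367 and 645 CPM across Apc ICI and at 837, 811 and 939 across AOM PN, and Trac at 664, 714 and 587 against 443, 446 and 499. Neither pair of ranges overlapped, and the changes were 0.63 ± 0.21 and -0.51 ± 0.17 (edgeR adjusted p = 0.334 for both). The Trbc1 share of the Trbc UMIs was 26.0% ± 7.25 across Apc ICI and 39.0% ± 1.37 across AOM PN (exact permutation p = 0.1, adjusted 0.5 over 5 values).

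Whether the change between models itself differed between these subsets was tested with limma on the log2 CPM differences, and no gene of 5678, 4503 and 4519 tested was called for the 3 pairs of subsets (737, 817 and 467 genes had an unadjusted p under 0.05). Of the 10 genes, Trbc2 and Trac had an unadjusted p under 0.05 for Treg-like against gamma-delta T-like cells (differences 0.65 and 0.79, limma adjusted p 0.352 and 0.345). They also did so for Treg-like against CD4 T-like cells (0.79 and 0.65, adjusted p 0.240 and 0.259). None of the subset differences named above is therefore shown to be larger in 1 subset than in another.

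Around the receptor, genes of proximal signalling moved in both directions. Of the 44 listed, all were tested, and 6 were called beside 6.14% of all genes: 4 rose and 2 fell in AOM PN T/NK-like cells, with a list median of 0.14 beside -0.01 over all genes tested. Cd8a, a co-receptor chain of cytotoxic T cells, was at 11.2, 32.2 and 39.9 CPM across Apc ICI and at 266, 122 and 40.4 across AOM PN, a rise of 2.61 ± 0.66 (edgeR adjusted p = 0.0491) in which AOM PN 3 was barely above the highest Apc ICI library. Fcer1g, an adaptor that can stand in for the zeta chain, was at 136, 145 and 139 CPM against 780, 425 and 157, a rise of 1.79 ± 0.44 (0.0458). Both were thus highest in AOM PN 1 and lowest of the AOM PN libraries in AOM PN 3. The adhesion receptor Cd2 rose by 0.54 ± 0.13 (edgeR adjusted p = 0.0439) and the adaptor Grb2 by 0.44 ± 0.10 (0.0386). Of those that fell, the adaptor Grap2 changed by -0.62 ± 0.14 (edgeR adjusted p = 0.0331).

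The zeta chain Cd247 (-0.37, edgeR adjusted p = 0.278), the kinases Lck (0.31, 0.194) and Zap70 (-0.39, 0.159) and the co-receptors Cd4 (0.47, 0.205) and Cd8b1 (0.92, 0.239) were not called. Of the 44 proximal genes, 1 was called without Apc ICI 2, none without any other 1 library except AOM PN 3, and 7 without AOM PN 3. Of 12 transcription factors of receptor and CD3 expression none was called by edgeR and 2 had an unadjusted p under 0.05 (list median -0.10). How many of all genes reached that unadjusted level is not given. Of 18 genes induced by receptor signalling 1, Cd69, was called, beside 6.14% of all genes. It was at 460, 478 and 408 CPM across Apc ICI and 563, 697 and 597 across AOM PN, a rise of 0.56 ± 0.12 (edgeR adjusted p = 0.0311), and the list median was -0.07. No gene of that list was called without Apc ICI 1, Apc ICI 3 or AOM PN 2, and 3 were without AOM PN 3. Markers of other cells in T/NK-like barcodes differed too: 5 mast cell genes summed to 0.00848% to 0.0157% of the UMIs in Apc ICI and 0.102% or more across AOM PN, and 4 haemoglobin genes to 1.89% to 4.71% and 0.318% to 2.69%. Fcer1g is also a mast and myeloid cell gene. Among the 3 AOM PN libraries the mast cell genes were highest and Fcer1g lowest in AOM PN 3. The sub-cluster led by Cd7 and Gzmc, which also has Fcer1g and Cd8a in its top 10, was 0.228%, 0% and 2.35% of T/NK-like cells across Apc ICI and 19.96%, 10.7% and 2.90% across AOM PN, the order of Fcer1g and Cd8a within AOM PN. The part of either in the rises was not tested.

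In other classes, which should lack these transcripts, 2 calls were made. Summed CD3 was at 18.3, 58.1 and 0 CPM in B-like cells of Apc ICI and at 160, 109 and 84.3 across AOM PN. In T/NK-like cells it was at 3648 and 3177 CPM over the libraries of Apc ICI and AOM PN. In neutrophil-like cells Trdc was at 5.33, 3.90 and 2.73 CPM across Apc ICI and at 0.468, 0 and 0.965 across AOM PN, where 3 UMIs would give 0.351, 0.210 and 0.322. Trdc was lower there by -2.77 ± 0.68 (edgeR adjusted p = 0.0152), beside 32.1% of genes called (17.2% lower), in the same direction as in T/NK-like cells. Leaving out Apc ICI 1 (0.0624) or 2 (0.0537) ended the call. In B-like cells Trbc1 was at 11.9, 3.06 and 15.2 CPM against 46.6, 47.9 and 39.6, higher by 2.14 ± 0.40 (edgeR adjusted p = 0.0173), beside 1.11% of genes called (0.654% higher). That call ended when Apc ICI 1 (0.112) or 2 (0.109) or AOM PN 3 (0.0874) was left out. None of the genes tested was called by edgeR in monocyte/macrophage-like (3.48% of genes called), dendritic-like (0.627%) or erythroid-like cells (4.64%). At an unadjusted p under 0.05 stood Trac in the first and Trbc1, Cd3g and Cd3d in the second, without the share of all genes at that level. The part of RNA from T cells in these values was not tested.

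Epithelial-like barcodes of AOM PN held Trac with little of the rest of the receptor. Trac was at 4.67, 3.25 and 1.95 CPM across Apc ICI (31, 51 and 11 UMIs) and at 150, 165 and 119 CPM across AOM PN (265, 656 and 187 UMIs). This is the contrast by which the genes were chosen, and its means of 3.29 ± 1.36 and 145 ± 23.6 CPM (SD, n = 3) are given with no test. Of the 497, 963 and 691 epithelial-like barcodes of Apc ICI, 20, 40 and 11 held a Trac UMI, and of the 913, 669 and 479 of AOM PN, 133, 136 and 50 did. The AOM PN barcodes were the shallower ones, with medians of 1103, 1640 and 1381 UMIs against 4509, 7021 and 2973. Barcodes with at least 1500 UMIs, 903 of 2061 in AOM PN and 1582 of 2151 in Apc ICI, were thinned to 1500 UMIs. Of these, 12.9% ± 3.58 in AOM PN and 0.602% ± 0.227 in Apc ICI held a Trac UMI. Over all barcodes, unthinned, the shares were 15.1% ± 4.97 and 3.26% ± 1.44. In neutrophil-like cells, with median depths of 2647 to 3604 UMIs, the share of cells with a Trac UMI was 0.428% to 1.34% over the 6 libraries and Trac lay at 1.26 to 4.31 CPM in both models.

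The other 9 genes did not show this pattern in epithelial-like barcodes. Their sum was 15.3 ± 3.64 CPM across Apc ICI and 16.6 ± 4.87 across AOM PN, and no single one exceeded 9.84 CPM (Trbc1 in AOM PN 2) in any library. Trbc1 had means of 3.12 and 4.67 CPM across Apc ICI and AOM PN, Trbc2 of 3.98 and 2.57, and Trdc of 2.19 and 0.782. Tcrg-C1 had means of 0.562 and 0.593, Tcrg-C2 of 0.460 and 0.486, Cd3e of 1.39 and 1.45, Cd3d of 1.54 and 3.34, and Cd3g of 2.09 and 2.51. Tcrg-C4 had 0 UMIs in 5 of the 6 libraries and 1 UMI in AOM PN 1, where a count of 0 allows at most 0.191 to 1.91 CPM in the 5. Trac was 89.2% of the UMIs of the 10 genes in AOM PN epithelial-like barcodes and 18.0% across Apc ICI. For every 100 UMIs of CD3 there were 2052 of Trac in AOM PN and 67.9 across Apc ICI, beside 11.5 and 8.31 in T/NK-like cells and 21.7 to 57.3 in other AOM PN classes that held Trac. The sum of Trac UMIs in epithelial-like barcodes thus did not carry the ratio to CD3 seen in T/NK-like cells of the same libraries.

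**Figure D4:**
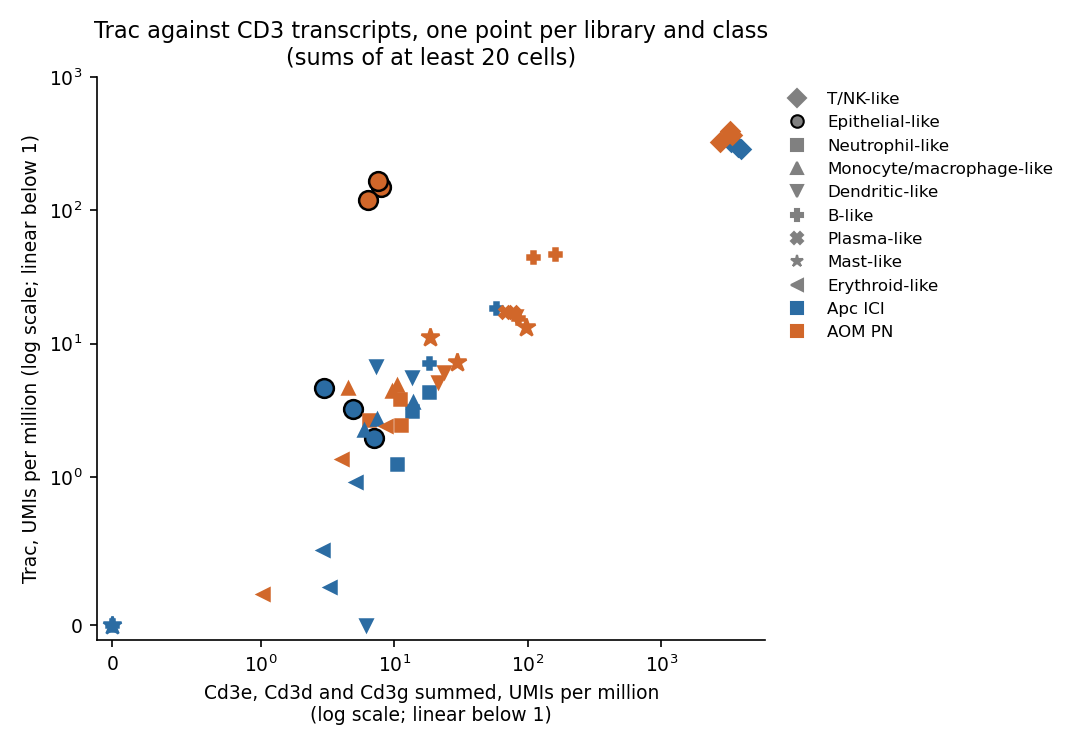
Trac level against the summed CD3 level in CPM, on axes that are logarithmic above 1 and linear below, 1 point per library and class with at least 20 cells. Epithelial-like points of AOM PN lie at 119 to 165 CPM of Trac with CD3 below 8 CPM, apart from the T/NK-like points and from the other classes.

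Of the 319 AOM PN epithelial-like barcodes with a Trac UMI, 302 (94.7%) held no UMI of any of the other 9 genes, and so did 54 of 71 (76.1%) in Apc ICI. Of 8 epithelial markers, Krt8 and Krt19 were each found in 90.9% of the 319, Epcam in 84.0%, Cldn7 in 82.1%, Krt18 in 79.9%, Elf3 in 63.3%, Vil1 in 50.5% and Cdh1 in 39.5%. Among AOM PN epithelial-like barcodes without Trac, Epcam was in 72.9%, Krt8 in 65.8% and Cdh1 in 22.3%. Barcodes with Trac were also deeper, with a median of 6329 against 1136.5 UMIs, and had a higher median doublet score (0.589 against 0.292). Genes of intraepithelial lymphocytes were rare in the 319: Cd8a in 0 (which allows up to 0.940%), Cd8b1, Cd160, Gzma and Xcl1 in 1 each, Cd7, Cd2, Cd247 and Lck in 2 each, Thy1 in 3 and Nkg7 in 4. Itgae was in 8, Gzmb in 9, Ccl5 in 14 and Ptprc in 17. Beside AOM PN barcodes without Trac, Ptprc (5.33% against 1.89%), Ccl5 (4.39% against 0.804%) and Itgae (2.51% against 0.804%) were more frequent in the 319. So were the genes found in 1 to 4 of them, but not Gzmb (2.82% against 2.93%) or Cd8a (0% against 0.0574%). The part of depth and of doublets in these differences was not tested. Segments of the alpha locus that a rearranged transcript would carry gave 1 variable and 1 joining UMI beside 1108 Trac UMIs in AOM PN epithelial-like barcodes, and 469 and 12 beside 7939 Trac UMIs in AOM PN T/NK-like cells, as counted by 3′ reads. Of the 319 barcodes 154 held 1 Trac UMI, 89 held 2 to 4 and 76 held 5 or more, up to 14, 24 and 18 in the 3 libraries, while in Apc ICI 3 barcodes held 5 or more. With called doublets kept, 638 of 2555 AOM PN barcodes held a Trac UMI, with 3173 Trac UMIs in all, against 319 of 2061 and 1108 without them, and the part of doublets that were not called was not tested. With called doublets kept the Trac level was 150 CPM across AOM PN and 4.02 across Apc ICI, and without barcodes that held at least 2 of the 10 genes it was 140 and 2.65. Dad1, the next gene downstream, lies 11272 bases away on the opposite strand.

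Trac was not spread evenly over AOM PN epithelium. Summed over libraries it was at 358 CPM in a sub-cluster led by Ube2c, Hmgb2 and Top2a, genes of dividing cells (80 barcodes, 58.8% with Trac), at 264 CPM in one led by Pyy, Reg3b and Gpx2 (339 barcodes, 33.9%) and at 190 CPM in one led by Wfdc18 and Gpx2 (104 barcodes, 76.0%). The last of these was deep, with a median of 22337.5 UMIs, and held 50.7% of the Trac UMIs in 5.05% of the AOM PN barcodes. Sub-clusters led by Gm26917 and by Jun, with 779 and 441 barcodes, were at 34.97 and 31.5 CPM. One led by AY036118 and Gm42418 was at 114 CPM, a value that rests on 10 UMIs in 76 barcodes, and one led by Saa1 and Lypd8 at 10.7 CPM (92 barcodes). A second sub-cluster with genes of dividing cells, led by Mki67, was at 30.9 CPM, on 5 Trac UMIs in 56 barcodes. By library (AOM PN 1, 2 and 3) the Wfdc18 sub-cluster was at 126, 193 and 192 CPM, the Pyy sub-cluster at 242, 304 and 114, and the Gm26917 sub-cluster at 34.5, 39.6 and 28.3. The Ube2c sub-cluster was at 391 and 339 in AOM PN 1 and 2 and had 0 Trac UMIs in the 6 barcodes of AOM PN 3. The AY036118 sub-cluster was at 83.2, 170 and 0, on 3, 7 and 0 UMIs. In Apc ICI the Ube2c, Pyy and Wfdc18 sub-clusters were at 4.22, 0 (70 barcodes) and 9.05 CPM. Mitochondrial UMIs were a median 0.0777% of the AOM PN barcodes in the Ube2c and 0.0335% in the Pyy sub-cluster, beside 6.04% in the Wfdc18 and 1.89% in the Gm26917 sub-cluster, and the part of RNA quality in the Trac levels was not tested. After thinning, the Ube2c, Pyy, Wfdc18, Gm26917 and Jun sub-clusters of AOM PN were at 418, 238, 141, 31.9 and 38.3 CPM, in the same order but for the last 2.

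**Figure D5:**
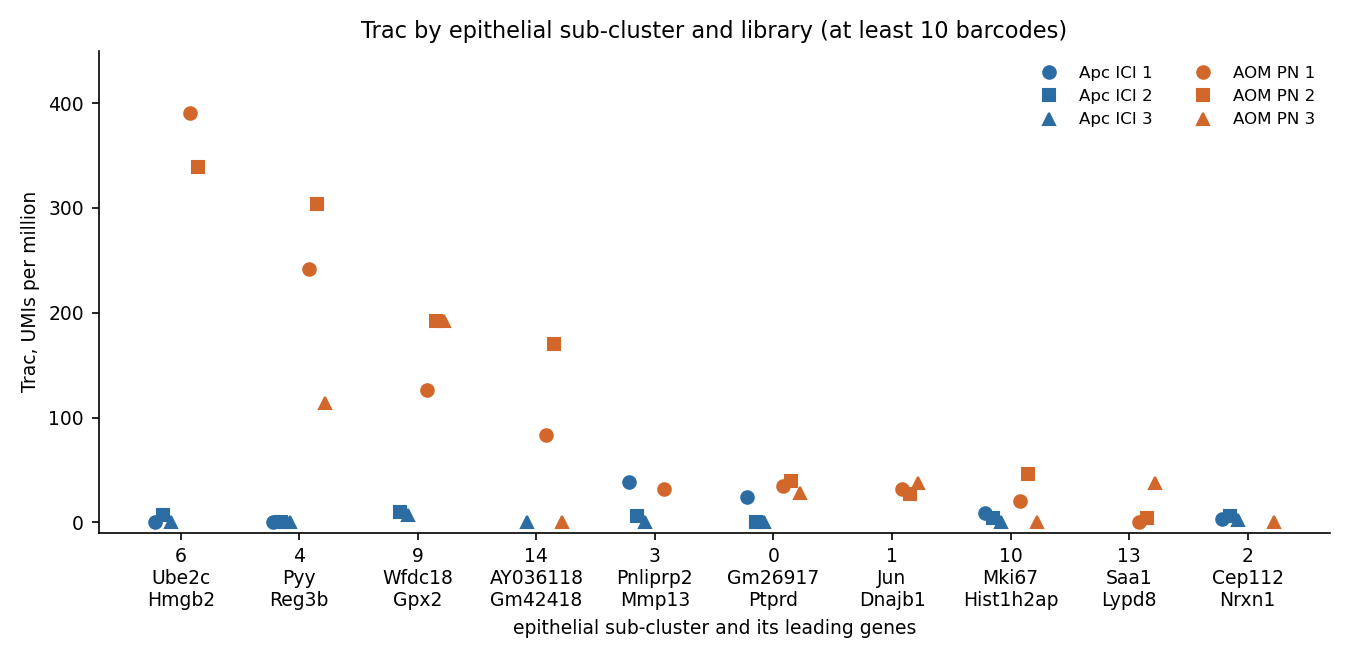
Trac level in CPM by epithelial sub-cluster, with its leading genes, 1 point per library with at least 10 barcodes in it. AOM PN points in the sub-clusters led by Ube2c, Pyy and Wfdc18 lie at 114 to 391 CPM, those in the one led by AY036118 lie at 83.2, 170 and 0, and no Apc ICI point exceeds 38.5 CPM, a value that rests on 3 Trac UMIs.

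Across the 49 sums of a library and class, the genes whose log2(CPM + 1) was most like the mean of Cd3e, Cd3d and Cd3g were Icos (Pearson r 0.98), Cxcr6 (0.97), Il2rb (0.97), Cd6 (0.96), Ctsw (0.96), Fasl (0.95), Cd96 (0.95) and Cd5 (0.95). Among the receptor genes the value was highest for Trbc2 (0.98) and lowest for Trac (0.83). Across 40 sums of a library and T subset the genes most like Trdc were Cd163l1 (0.83), Cryba4 (0.81), Tdrd9 (0.78), Blk (0.78) and Igf2bp2 (0.75), ahead of Tcrg-C4 (0.57), Tcrg-C1 (0.48) and Trac (-0.20). Sums of a library share their depth and free RNA, and Cd163l1 and Blk were among the markers that named the gamma-delta T-like cells, so these values are descriptions only.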

How the data were processed

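The deposited matrices hold raw UMI counts from Cell Ranger 6.1.2 on mm10, per the submitters' processing notes; the annotation was not given in the sources used here. Kept barcodes had 200 or more genes and up to 20% mitochondrial UMIs, and doublets (0.8% expected per 1000 barcodes) were removed by scoring against simulated ones. Cells were clustered (2000 variable genes, 30 components, 20 neighbours, Leiden resolution 1) with receptor, CD3 and haemoglobin genes left out, using leidenalg 0.10.2, scikit-learn 1.9.0, scipy 1.17.1 and numpy 2.4.6 under Python 3.11.15. A cluster was named from at least 3 markers, each in 10% of its cells and at a log2 fold of at least 1, so names were rebuilt here and may differ from those of the study. Counts were summed per library and class (at least 20 cells) and tested with edgeR 4.0.16 in R 4.3.3 (quasi-likelihood, TMM, filterByExpr, Benjamini-Hochberg adjustment over all genes tested, threshold 0.05), with DESeq2 1.42.0 as an alternative. Differences of change between subsets used limma 3.58.1. Single values used a two-sided exact permutation test. Intervals and limits for counts of 0 (3 UMIs or barcodes) cover counting error only. Sequences were aligned with Biopython 1.88.

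The 10 genes and the gene lists were chosen with earlier results of these data known. Named genes were the 10, up to 4 called genes of each list and direction with the largest change, a few signalling genes whether called or not, and the genes most like CD3 or Trdc by correlation; a gene that fell among the signalling genes is not reported here. Alternatives left out each library, kept doublets, dropped the low-count filter, removed haemoglobin genes, thinned cells, kept only cells with a CD3 UMI, or changed the scaling. Replicate numbers did not pair the samples (correlations of same-numbered deviations -0.07, 0.10 and 0.00). On simulated counts for T/NK-like cells (10360 genes, 200 changed) the script recovered 73% of 2-fold and 98% of 4-fold changes. For the differences between subsets it recovered 58.5%, 64.5% and 96% of 4-fold changes.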

Additional observations from a re-analysis of the deposited data

How the results depend on the processing

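The count of the 10 genes called in T/NK-like cells was 2, and it was 4 with cells thinned to 1000 UMIs, 4 without the low-count filter, 4 with only cells that held a CD3 UMI, and 0 to 3 with 1 library left out. Under these and the replicate block, where it was 3, Trdc passed without AOM PN 3 and with the block (-1.45, adjusted p 0.0338), doublets kept (0.0416), no filter (1.37e-06), thinning (0.0222) and CD3-bearing cells (0.0470), Trac with no filter (0.0496) and thinning (0.0340), and Tcrg-C4 with CD3-bearing cells (0.0467). Over all genes tested in T/NK-like cells, 636 of 10360 were called in the main fit and 355 of 10360 with the block. It was 822 of 5792 with thinning, 1394 of 18125 without the filter and 539 of 10137 with CD3-bearing cells. With 1 library left out 75 to 734 genes were called. The replicate block gave 0 of the 10 in gamma-delta T-like cells (Tcrg-C2 adjusted p 0.0563) and 0 in B-like cells (Trbc1 0.0593), beside 38 of 6328 and 40 of 5047 genes. Leaving out 1 library gave 0 to 3 in Treg-like, 1 in gamma-delta T-like, 0 in CD4 T-like, 0 to 1 in neutrophil-like and 0 to 2 in B-like cells. Over all genes tested, these fits called 291 to 1059, 122 to 372, 1 to 20, 1443 to 2801 and 10 to 108. With doublets kept, 6 were called in monocyte/macrophage-like, 5 in dendritic-like and 2 in neutrophil-like cells. They stood beside 481 of 11450, 140 of 9166 and 2721 of 10031 genes tested. In monocyte/macrophage-like cells with doublets kept, Trbc2 (1.67), Cd3e (1.58) and Cd3d (1.41) changed direction.

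In epithelial-like barcodes the mean Trac level of AOM PN was 108 CPM after thinning and 135 to 158 with 1 library left out, and that of Apc ICI 2.60 to 3.96. The other 9 genes summed to 35.5 CPM in AOM PN and 22.7 in Apc ICI with doublets kept, to 9.21 and 8.51 without barcodes that held 2 or more of the 10, and to 21.7 in Apc ICI after thinning. The mean Trac share of the UMIs of the 10 was 80.9%, 86.4% and 93.5% in AOM PN with doublets kept, after thinning and without such barcodes. As means over thinned cells the differences between models (AOM PN minus Apc ICI, percentage points) reversed to -2.28 for the Tcrg-C2 share and -3.92 for the Trbc1 share, and with 1 library left out they ran from -1.51 to 3.13 and from -1.94 to 2.60. Proximal signalling genes called numbered 1 with the block and 0 to 7 with 1 library left out, transcription factors 2 without the filter and 0 to 1, and receptor-induced genes 5 without the filter, 0 with the block and 0 to 3. The causes were not tested. Depth limited the shares of cells with a UMI, and 3 libraries per model limited every exact test to p = 0.1.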

Other observations

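Mast-like cells of AOM PN carried UMIs of the delta variable segment Trdv4 with few UMIs of the delta constant gene Trdc. Trdv4 was found in 419 of 3789 AOM PN mast-like cells (11.1%), with 549 UMIs beside 64 of Trdc. That is 858 Trdv4 UMIs per 100 of Trdc, beside 25.7 and 32.9 in T/NK-like cells of Apc ICI and AOM PN. By library, Trdv4 was at 13.5, 25.3 and 16.9 CPM in mast-like cells of AOM PN 1, 2 and 3 and was found in 5.40%, 17.2% and 13.1% of these cells. The 53 mast-like cells of Apc ICI held 4 Trdv4 UMIs in 3 cells, out of only 44510, 43122 and 70438 UMIs by library. That is too few to set the models apart. Over all 3842 mast-like cells, 104 of 422 cells with Trdv4 (24.6%) also held a UMI of the 10 receptor and CD3 genes, as did 432 of 3420 cells without it (12.6%). In epithelial-like barcodes of AOM PN, where Trac was abundant, Trdv4 had 1 UMI.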
